A study of Mus musculus with 2 samples.

Results

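The miR-23/27/24 paired clusters are a pair of short runs of miRNA genes, one on chromosome 8 and one on chromosome 13 of the mouse. Members were taken by the exact name of the miRNA on the array, which gave 7 of the 1023 mouse miRNAs measured. The chromosome 8 copy gives mmu-miR-23a, mmu-miR-27a and mmu-miR-24-2*, and the chromosome 13 copy gives mmu-miR-23b, mmu-miR-27b and mmu-miR-24-1*. The remaining member, mmu-miR-24, is made from both copies, and the species prefix is left off below. An asterisk marks the less abundant arm of a hairpin in the older naming used by the array. The RNA was from female quadriceps, the muscle at the front of the thigh, at 15 to 16 weeks of age. One sample was wild type (WT), and the other came from the NF90-NF45 double transgenic (dbTg) line, which carries transgenes for both proteins. The promoter that drives the transgenes, and whether a sample was 1 animal or a pool, are not given in the sources used here. Each genotype was measured on 1 array, so no test was possible, and each error below is a spot standard error (spot SE), which reflects the scatter of repeated spots within an array and nothing else.

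In each cluster the hairpins are thought to be cut from a shared primary transcript by the Microprocessor, the nuclear complex that frees miRNA hairpins. NF90 and NF45 form a complex with affinity for double-stranded RNA, which is known to sit on some primary miRNA transcripts and to slow that step. In skeletal muscle, miR-23a is known to restrain the atrophy ligases MuRF1 and atrogin-1. miR-27 is known to target Pax3, a regulator of muscle progenitor cells, and miR-24 is known to favour myoblast differentiation.

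The mature sequences show which members can regulate the same targets and where the copies can be told apart. They are from RefSeq (GRCm38.p6), are written 5′ to 3′, and carry the seed, bases 2 to 8, in capitals. Of the 7 members 6 matched an entry by name, and miR-23b did not.
miR-23a: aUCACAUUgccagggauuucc
miR-27a: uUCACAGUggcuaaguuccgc
miR-27b: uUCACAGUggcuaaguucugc
miR-24: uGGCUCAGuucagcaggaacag
miR-24-2*: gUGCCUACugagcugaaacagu
miR-24-1*: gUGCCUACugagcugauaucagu
miR-27a and miR-27b share a seed and differ by 1 base, C19U counted from the 5′ end of miR-27a. The asterisk arms also share a seed, and their first 16 bases are the same. The hairpins of miR-24 are shown because identical mature miR-24 leaves both, while the other arm tells them apart. Capitals mark both arms, the asterisk arm first.
Mir24-2: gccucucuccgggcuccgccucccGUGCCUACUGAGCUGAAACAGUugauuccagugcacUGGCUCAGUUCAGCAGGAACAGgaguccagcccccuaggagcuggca
Mir24-1: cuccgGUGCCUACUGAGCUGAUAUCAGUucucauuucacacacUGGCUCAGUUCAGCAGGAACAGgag

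In GRCm38.p6 the chromosome 8 hairpins Mir23a, Mir27a and Mir24-2 lie on the plus strand at chr8:84208518-84208921, within 404 bases. The chromosome 13 hairpins Mir23b, Mir27b and Mir24-1 lie in the same order on the plus strand at chr13:63300484-63301275, within 792 bases. Apart from miRNA genes, the chromosome 8 cluster overlaps no annotated gene, and the near edge of Zswim4 lies 2021 bases after it. The chromosome 13 cluster lies inside the span of Aopep, which encodes an aminopeptidase, and the near edge of Fancc lies 59 bases after it. The array's own probe positions are in mm9, where they fall in chr8:86732466-86732795 and chr13:63401842-63402580. The map of both clusters shows the order of the hairpins with the log2 ratio of each member.

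**Figure D1:**
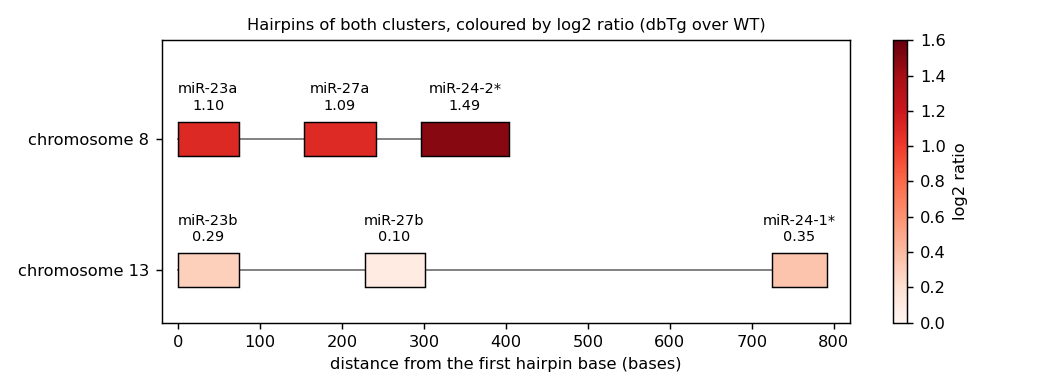
Hairpins of the chromosome 8 and chromosome 13 clusters drawn to scale, with distance from the first hairpin base on the x axis in bases. Boxes are hairpins, coloured and labelled by the log2 ratio of dbTg over WT of the named product. The chromosome 8 boxes carry 1.10, 1.09 and 1.49, and the chromosome 13 boxes carry 0.29, 0.10 and 0.35.

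The arrays held 43200 miRNA spots each, and 14.9% of them were well above background for WT and 17.7% for dbTg. A probe counts as detected when at least 0.5 of its unflagged spots are well above background, and 175 mouse miRNAs had a probe detected on both arrays. All 7 members were among them, with 13 of their 14 probes. Signals are background-subtracted spot intensities, averaged over the 13 to 20 unflagged spots of a probe. Ratios are given after scaling, in which signals were divided by their array's 75th percentile over probes detected on both arrays (882 for WT, 1220 for dbTg). That division took 0.47 off the log2 ratio of the signals as measured. The median log2 ratio of the 175 miRNAs was then 0.00.

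The 3 members made only on chromosome 8 were each at least 2-fold higher in dbTg muscle. With miR-24 that made 4 of 7 members, and none was at least 2-fold lower. Among the 175 miRNAs, 11.4% were at least 2-fold higher and 10.3% at least 2-fold lower. No member was at least 3-fold higher, where 2.86% of the 175 were. The members' median log2 ratio was 1.05. All 7 log2 ratios were above 0, where 50.9% of the 175 were. In whole muscle, more cells of a type and more RNA per cell cannot be told apart.

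The first hairpin on chromosome 8 gives miR-23a, the repressor of atrophy ligases. Its 17-base probe averaged 1735 on WT and 5107 on dbTg. Its 18-base probe averaged 4426 and 13261. On both probes every dbTg spot was above every WT spot after scaling. Such separation reflects the small scatter of spots within an array, and it also held for miR-23b at 1.22-fold. How often it held over all probes is not given here. The log2 ratio of miR-23a was 1.10 (spot SE 0.0097), or 2.15-fold higher.

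miR-27a comes from the second hairpin of the cluster. Its 16-base probe averaged 1013 on WT and 3012 on dbTg, and its 17-base probe averaged 2020 and 5929. The spots of the arrays again did not overlap after scaling, which was also so for the 17-base probe of miR-27b at only 1.09-fold. The log2 ratio was 1.09 (spot SE 0.0089), or 2.14-fold higher, and differed from that of miR-23a by 0.0070, less than its spot SE of 0.013.

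miR-24-2* is the arm that reports on the chromosome 8 hairpin of miR-24 alone. It was far dimmer than the main arms. Its 16-base probe averaged 37.0 on WT and 146 on dbTg, and its 17-base probe averaged 52.4 and 199.9. On the WT array 10 of the 20 spots of the 16-base probe were well above background, which is just the share needed for detection. Negative control spots there averaged 6.21 (SD 6.31, 1000 spots), and the lowest detected probe averaged 34.5. The log2 ratio of miR-24-2* was 1.49 (spot SE 0.045), or 2.81-fold higher, the highest of the members and rank 6 of the 175 miRNAs. With normexp background correction the log2 ratio of miR-24-2* was 0.53 and no longer 2-fold. That correction adds an offset of 50 to each spot, against WT probe means of 37.0 and 52.4 here. An added constant pulls the ratios of dim probes towards no change before scaling. Scaling came after it, and the median log2 ratio of all miRNAs was then -0.20. How much of the fall came from the offset was not tested.

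The members made only on chromosome 13 were each less than 1.5-fold higher in dbTg muscle. The probes of miR-23b averaged 2259 (17 bases) and 783 (16 bases) on WT, and 3777 and 1338 on dbTg. The dbTg spots were all above the WT spots after scaling, but by a small margin. The log2 ratio of miR-23b was 0.29 (spot SE 0.010), or 1.22-fold.

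miR-27b shares its seed with miR-27a. Its 17-base probe averaged 1313 on WT and 1974 on dbTg, and its 16-base probe averaged 342 and 498. After scaling, the spots of the 16-base probe overlapped between the arrays. Its log2 ratio was 0.097 (spot SE 0.015), the lowest of the members at rank 86 of 175. It lay below 0 under 4 other treatments of the signal, at -0.068 with scaling on all miRNA probes, -0.24 with positive control probes, -0.13 with the total gene signal and -0.063 in the authors' deposited table.

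miR-24-1* is the arm that reports on the chromosome 13 hairpin of miR-24. It had 1 detected probe, of 21 bases, which averaged 46.4 on WT and 81.8 on dbTg. Its other probe, of 20 bases, averaged 18.9 and 28.7 and was not well above background on most spots of either array. The log2 ratio from the detected probe was 0.35 (spot SE 0.047), or 1.27-fold. After scaling its spots overlapped between the arrays. Normexp correction, whose offset of 50 exceeds the WT mean of this probe, gave -0.12.

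**Figure D2:**
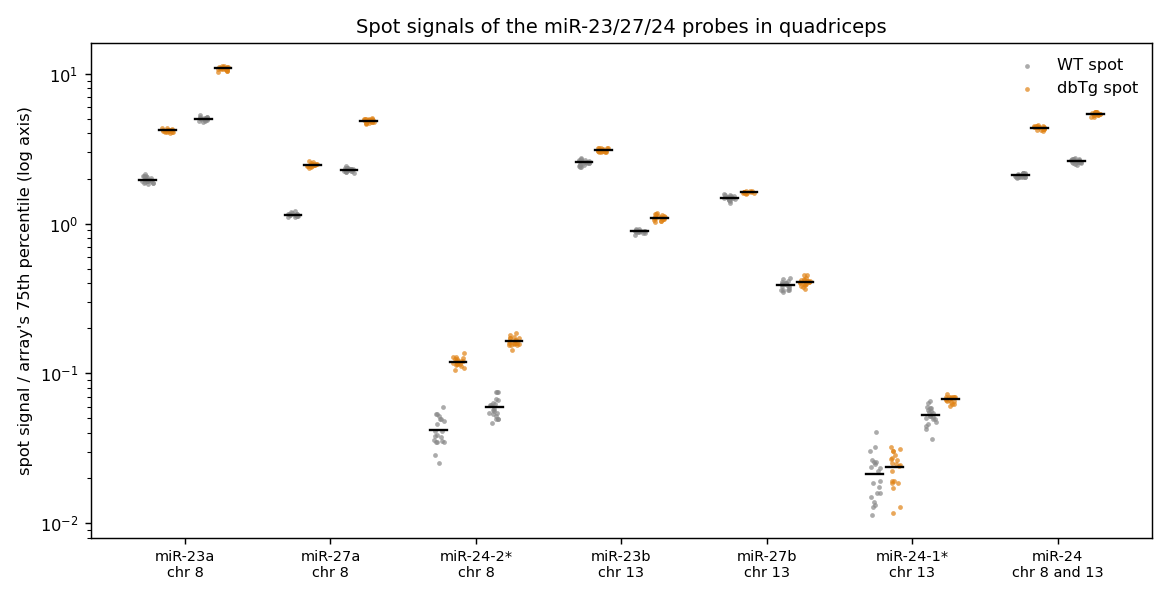
Signal of each unflagged spot divided by its array's 75th percentile (log axis), for both probes of each member, WT in grey and dbTg in orange, with black bars at probe means. The dbTg spots of miR-23a, miR-27a, miR-24-2* and miR-24 sit clear of the WT spots, and those of miR-24-1* and of the dimmer miR-27b probe overlap them. Those of miR-23b and of the brighter miR-27b probe are separate by a small margin.

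miR-24, the main arm that both copies make, followed the chromosome 8 members. Its 17-base probe averaged 1851 on WT and 5336 on dbTg, and its 18-base probe averaged 2303 and 6580. Its log2 ratio was 1.05 (spot SE 0.0083), or 2.07-fold higher. This lay 0.042 below miR-27a and 0.70 above miR-24-1*, the next member down. The probes cannot tell miR-24 of one copy from that of the other.

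Under the main scaling, the order of log2 ratios from the highest down was miR-24-2*, miR-23a, miR-27a, miR-24, miR-24-1*, miR-23b and miR-27b. With normexp correction miR-24-2* (0.53) lay below miR-24 (1.05). Of the neighbours in this order, miR-23a and miR-27a lay within the 95% interval of spot error, as did miR-24-1* and miR-23b, which differed by 0.061 (spot SE 0.048). The other neighbours differed beyond it. The probes of a member gave nearly the same ratio, apart by 0.013 for miR-24 to 0.050 for miR-24-2* over the 6 members with 2 detected probes. The gap of 0.042 between miR-27a and miR-24 lies within that range. The 6 probes of the chromosome 8 copy ranged from 1.09 to 1.51 and the 5 of the chromosome 13 copy from 0.074 to 0.35, so the ranges were separate. Probes of the same member overlap in sequence and read the same RNA on the same array, so they are not independent readings.

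**Figure D3:**
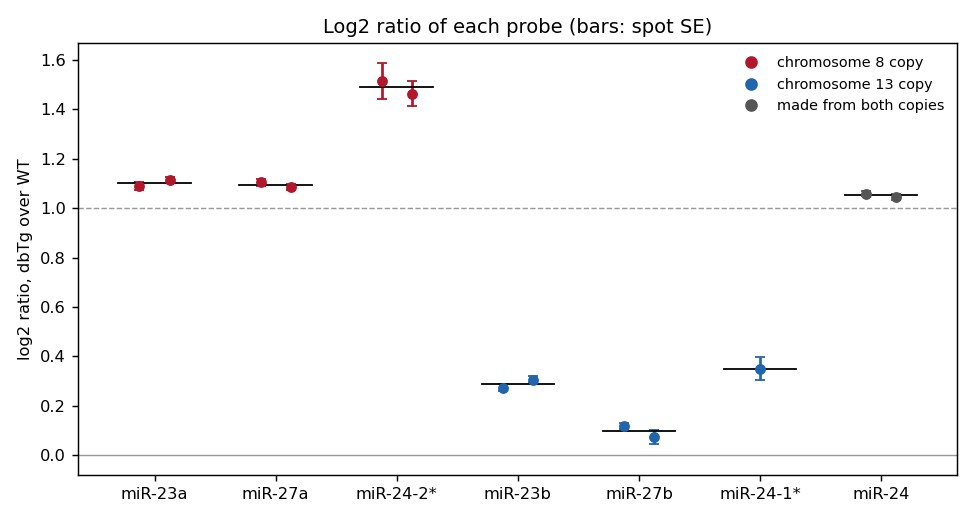
Log2 ratio of dbTg over WT (y axis) for each probe detected on both arrays, with bars for the spot SE, by member and coloured by chromosome. Black lines mark the member's mean, and the dashed line marks 2-fold. The chromosome 8 probes lie at 1.09 or above, and the chromosome 13 probes at 0.35 or below.

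Position by position, the chromosome 8 product had the higher ratio in all 3 pairs. The difference in log2 ratio was 0.81 between miR-23a and miR-23b (spot SE 0.014, 95% interval of spot error 0.79 to 0.84). It was 0.998 between miR-27a and miR-27b (spot SE 0.017, interval 0.96 to 1.03). It was 1.14 between miR-24-2* and miR-24-1* (spot SE 0.065, interval 1.01 to 1.27). The intervals cover spot error on these arrays and not the spread between animals. A factor that scales a whole array cancels in these differences, so they are the same under each scaling that divides by 1 number. Under all other alternatives they stayed above 0, from 0.78 to 0.87 for the miR-23 pair, from 0.90 to 1.03 for the miR-27 pair and from 0.65 (normexp correction) to 1.245 (no filter on dim probes) for the miR-24 arms.

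The probes of the miR-23 and miR-27 pairs are nearly alike, and their sequences show how little separates the readings of the copies. Those of equal length are given below, from the array files, 5′ to 3′, with the base that differs in capitals.
miR-23a, 17 bases: ggAaatccctggcaatg
miR-23b, 17 bases: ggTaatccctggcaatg
miR-27a, 16 bases: gcGgaacttagccact
miR-27b, 16 bases: gcAgaacttagccact
miR-27a, 17 bases: gcGgaacttagccactg
miR-27b, 17 bases: gcAgaacttagccactg
Counted from the 5′ end of the probe, the change from the chromosome 8 to the chromosome 13 probe is A3T for miR-23 and G3A for miR-27. The 17-base probes of miR-23a and miR-23b had log2 ratios of 1.09 and 0.27, a difference of 0.82 (spot SE 0.021). The 16-base probes of miR-27a and miR-27b had log2 ratios of 1.10 and 0.074, a difference of 1.03 (spot SE 0.030). For their 17-base probes these were 1.09 and 0.12, a difference of 0.97 (spot SE 0.017). Probes 1 base apart on the same array therefore gave ratios as far apart as the members' means. How much of each probe's signal came from the miRNA of the other copy was not tested.

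The probes of the asterisk arms are less alike, because those arms differ after base 16. The probes are shown in lower case, the longer one of each arm.
miR-24-2*, 17 bases: actgtttcagctcagta
miR-24-1*, 21 bases: actgatatcagctcagtaggc
They match bases 6 to 22 of miR-24-2* and bases 3 to 23 of miR-24-1*. This pair, the dimmest, had the largest spot SE. Its difference was the widest of the 3 pairs under the main scaling and the narrowest with normexp correction and in the authors' deposited table, at 0.65 and 0.70. In that table the miR-24-1* value holds the brighter probe alone on WT and both probes on dbTg. With the total gene signal the difference was 1.19.

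Other products of the clusters were not seen. The array has probes for miR-23a*, miR-27a*, miR-23b* and miR-27b*, the other arms of the miR-23 and miR-27 hairpins. It also has probes for miR-3074-1-3p and miR-3074-2-3p, which lie opposite the miR-24 hairpins. None of these 6 had a spot well above background on either array. The brightest probe of each array averaged 0.737 on WT and 9.41 on dbTg, where negative control spots averaged 6.21 and 5.40. These were different probes, both of miR-23a*.

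Against the other miRNAs, the chromosome 8 members and miR-24 stood near the top and the chromosome 13 members near the middle. miR-23a, miR-27a and miR-24 held ranks 12, 13 and 15 of the 175 by log2 ratio, and miR-24-1* and miR-23b held ranks 61 and 67. The 5 miRNAs outside the clusters with log2 ratios nearest to the members' median of 1.05 were miR-130a (1.05), miR-1944 (1.04), miR-214 (1.04), miR-211* (1.02) and miR-128 (1.02). Of these, miR-1944 and miR-211* had 1 detected probe each, and miR-211* was dim, with a spot SE of 0.074. Likeness here rests on 1 difference between 2 arrays.

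**Figure D4:**
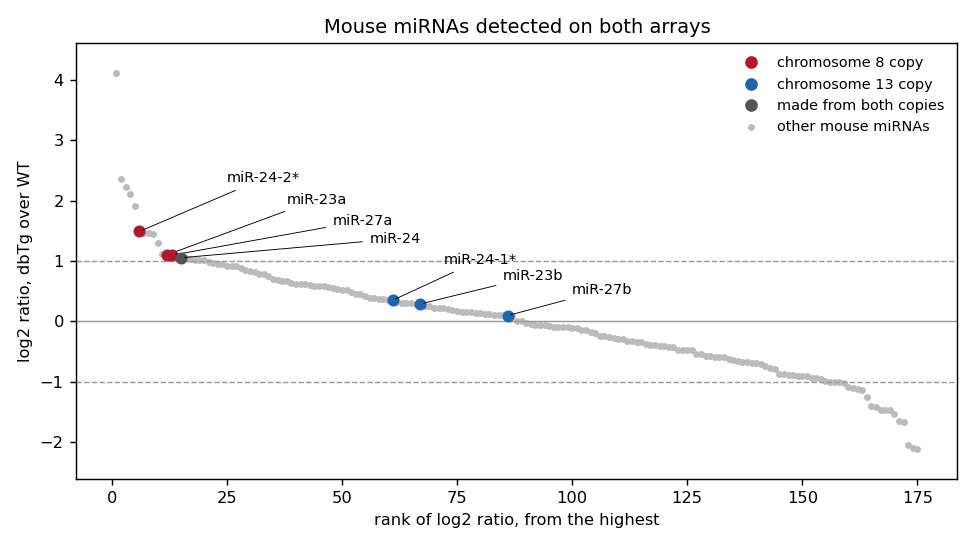
Log2 ratio of dbTg over WT (y axis) of the 175 mouse miRNAs detected on both arrays, ordered by rank (x axis), with the members coloured by chromosome and dashed lines at 2-fold. miR-24-2* is at rank 6, miR-23a, miR-27a and miR-24 are at ranks 12 to 15, and miR-27b is at rank 86.

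Other miRNAs whose names differ by a letter also had unlike ratios. Over 59 such pairs from 21 families, the median absolute difference in log2 ratio was 0.49. The let-7 family gave the most pairs, and the median was that of let-7b with let-7i. The miR-27 pair was the ninth and the miR-23 pair the tenth in size. The widest were miR-146a with miR-146b (2.36 and 0.58), miR-29b with miR-29c (0.17 and -1.47) and miR-29a* with miR-29c* (-0.58 and -2.11). Many of these pairs share a member, so they are not separate readings.

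Markers of cell types found in muscle were counted among those detected on both arrays. Of 4 for skeletal muscle, 1 was at least 2-fold higher and 1 at least 2-fold lower. At least 2-fold higher were 3 of 5 for white blood cells and 1 of 6 for fibroblasts. None of 4 for vessels and none of 2 for red cells passed either way. Among all 175 miRNAs, 11.4% were at least 2-fold higher and 10.3% at least 2-fold lower. With lists this short, 1 miRNA or none past 2-fold does not set a list apart from these shares. The marker counts were made under the main scaling only. The skeletal muscle miRNAs detected on both arrays were 4 of 6 on the array, and their summed signal, in units of each array's 75th percentile, was 315 on WT and 178 on dbTg. Of that list miR-499 was detected on dbTg only, miR-208b on neither array, and miR-208a matched no name. The log2 ratios ran from -1.14 for miR-133a to 4.11 for miR-206, a miRNA of regenerating fibres. For white blood cells, 5 of 6 miRNAs were detected on both arrays, 3 of them at least 2-fold higher, and the summed signal was 0.699 and 2.31. Their log2 ratios ran from 0.26 for miR-150 to 2.36 for miR-146a, with a median of 1.11, and miR-142-5p was detected on dbTg only.

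All 6 fibroblast miRNAs were detected, with 1 at least 2-fold higher, a median of 0.74 and summed signals of 3.26 and 5.59. The lowest was miR-140 at 0.54 and the highest miR-214 at 1.04. For vessels, in whose cells the miR-23/27/24 clusters are known to act, all 4 miRNAs were detected. Their median was -0.37, from -0.65 for miR-145 to 0.13 for miR-126-3p, and the summed signals were 6.40 and 6.37. The red cell miRNAs miR-144 and miR-451 had log2 ratios of -0.27 and -0.29, with summed signals of 3.06 and 2.51. The part of any of these cell types in the members' ratios was not tested.

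How many members counted as 2-fold higher turned on the scaling, because miR-23a, miR-27a and miR-24 lay just past that size. With scaling on all miRNA probes only miR-24-2* passed it, as did 5.71% of all miRNAs tested, whose median was -0.16. With positive control probes, again only miR-24-2* passed, with 5.14% of all and a median of -0.34. That also held for the total gene signal, with 5.71% of all and a median of -0.21. It held too in the authors' deposited table, with 6.29% of all and a median of -0.14. In that table the log2 ratios of miR-23a, miR-27a and miR-24 were 0.93, 0.92 and 0.88. With quantile normalization miR-24 came to 0.93, and 3 members passed, with 9.14% of all miRNAs. With normexp correction miR-24-2* fell short, and 3 members passed, with 4.0% of all and a median of -0.20. Without scaling the members ran from 0.56 for miR-27b to 1.957 for miR-24-2*, and the median of all miRNAs was 0.47. There 4 members passed, with 28% of all miRNAs. With spike-in probes the median of all miRNAs was 0.30, and 4 members passed, with 20% of all. In each of these settings the 3 chromosome 8 members and miR-24 lay above all 3 chromosome 13 members, most narrowly with normexp correction, where miR-24-2* was at 0.53 and miR-23b at 0.29.

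**Figure D5:**
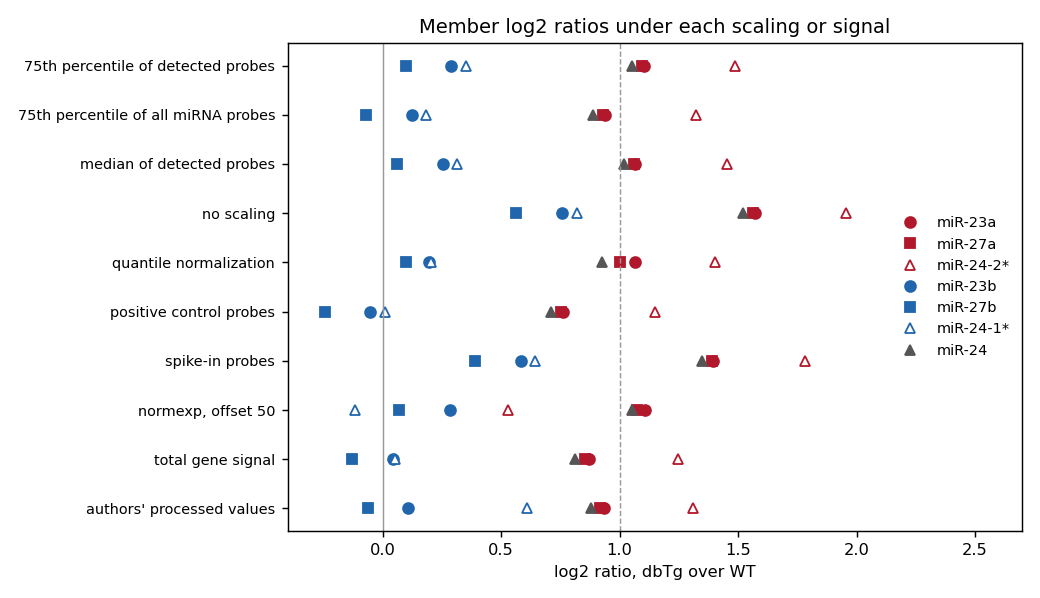
Log2 ratio of dbTg over WT (x axis) of each member under each scaling or signal (y axis), red for chromosome 8, blue for chromosome 13 and grey for miR-24, with the dashed line at 2-fold. The red and grey points shift together with the scaling and stay to the right of the blue ones, the closest approach being miR-24-2* at 0.53 and miR-23b at 0.29 with normexp correction.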

How the data were processed

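Cy3-labelled total RNA of 1 WT and 1 dbTg quadriceps sample was measured on 1 array each, per the labels' protocols. The authors deposited spot intensities from Feature Extraction 10.7.3.1, background-subtracted and detrended but not scaled between arrays, per the file headers. Their value table holds intensities that equal the total gene signal over 1 constant per array (74.3 and 154) within 0.1% for 77.2% of WT and 75.9% of dbTg values above the column's lowest. The column medians are that lowest value, 0.00135 and 0.00065, and no source used here says where the constants come from. Feature Extraction's total gene signal uses an effective feature size of 0.6 for WT and 0.796 for dbTg, per the file headers.

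Control and outlier spots were dropped. None of the miRNA spots was saturated. Spots of a probe were averaged, arrays scaled, and log2 ratios averaged over probes detected on both arrays (Python 3.11.15, pandas 2.3.3; limma 3.58.1 for normexp, offset 50). Precision is limited by the number of arrays. Without replicates, miRNAs were counted by size (2-fold). Named miRNAs are the members, other cluster products, the 5 nearest in ratio, the highest and lowest marker of each list, and the 3 widest letter pairs; miR-499, miR-208a, miR-208b and miR-142-5p were added for their detection. Members and lists were chosen with earlier results of these data known. The scripts were tested on simulated data.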

Additional observations from a re-analysis of the deposited data

How the results depend on the processing

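The count of 4 members at least 2-fold higher became 1 with scaling on the 75th percentile of all miRNA probes, on positive control probes, with the total gene signal and with the authors' values, where 5.14% to 6.29% of all 175 miRNAs passed. It became 3 with quantile normalization (9.14% of all) and with normexp correction (4.0%), and 0 at 3-fold (2.86%). No member was 2-fold lower under any alternative. The members' median log2 ratio of 1.05 became 0.89 with all miRNA probes, 1.02 with the median of detected probes, 1.52 without scaling, 0.93 with quantile normalization, 0.71 with positive control probes, 1.35 with spike-in probes, 0.53 with normexp correction, 0.81 with the total gene signal, 0.88 in the authors' values and 1.07 where every spot had to be well above background. That last setting drops miR-24-1*, so it gives no difference for the miR-24 arms. The difference between miR-23a and miR-23b became 0.84 with the brightest or the longest probe, 0.78 with the shortest and 0.87 with quantile normalization. That between miR-27a and miR-27b became 0.90 with quantile normalization. That between the miR-24 arms became 0.65 with normexp correction and 0.70 in the authors' values. The miR-24-1* value there holds different probes on the arrays. Log2 ratios turned below 0 for miR-27b with all miRNA probes (-0.068), positive control probes (-0.24), the total gene signal (-0.13) and the authors' values (-0.063). They did so for miR-23b with positive control probes (-0.051) and for miR-24-1* with normexp correction (-0.12). The cause was not tested, beyond the shift of all miRNAs by a common factor. Keeping outlier spots and using only probes of the same window were chosen after seeing the data, and moved no count and no difference beyond spot error. Log2 ratios, their median and their differences were called moved when they left the 95% interval of spot error, which counts do not have. No paired analysis was possible because each genotype has 1 array. Dim signal limits the asterisk arms, and no result has a replicate check.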

Other observations

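In the authors' deposited table the value of miR-24-1* holds different probes on the arrays. Its WT value of 0.176 equals the brighter probe alone, where both probes together would give 0.248. Its dbTg value of 0.269 equals both probes together, where the brighter alone would give 0.199. The log2 ratio in that table was 0.61, against 0.35 from the probe detected on both arrays. The difference of 0.70 between the miR-24 arms in that table rests on this 0.61.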
